A study of Mus musculus with 12 samples.

Results

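The genes described here encode the machinery of regulated exocytosis: the proteins that carry secretory and synaptic vesicles to the plasma membrane, hold them there and fuse them when calcium enters. The set holds 34 genes named by symbol, out of 23420 rows of the count table, and all 34 passed the filter on low counts that left 15369 genes to test. RNA came from whole pylorus, the outlet of the stomach, and was sequenced in 12 libraries. Wild-type C57BL/6 mice aged 60 days (D60) or 80 days (D80) formed 2 groups of 3 libraries each. The other 2 groups, also with 3 libraries each, were C57BL/6 mice of the genotype CEA424-SV40 T Ag at those ages. These mice, called transgenic below, carry the SV40 large T antigen, a viral oncoprotein, under a promoter from a carcinoembryonic antigen gene, and serve as a model of gastric cancer. No treatment is named for any group. The labels do not say whether a library is 1 animal or a pool, so p-values measure the spread between these libraries.

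Regulated exocytosis is shared by neurons and endocrine cells. Vesicles are brought to the membrane by Rab3 GTPases and their effectors, made ready for fusion by the Munc13 and CAPS proteins, and fused by the SNARE complex of SNAP-25, syntaxin-1 and synaptobrevin. Synaptotagmins sense calcium, complexins clamp and promote the final step, and NSF takes the spent SNARE complex apart. In the stomach wall this machinery is known from enteroendocrine cells of the epithelium and from enteric neurons. A bulk library reads both together with any other cells that express these genes.

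Total counts ran from 20121600 to 27633715 per library, and the lowest count of any member in a library was 5, for Sv2b. Values below are CPM (counts per 1000000 counts, with TMM factors for composition), and a level per kb is CPM divided by the gene's exon length. Markers of neuroendocrine cells summed to 554 to 880 CPM in wild-type libraries, 5283 to 7246 at D60 and 30256 to 44678 at D80 in transgenic ones. Markers of enteric neurons summed to a range from 105 to 136 CPM in wild-type, 116 to 198 at D60 and 203 to 298 at D80 in transgenic libraries. Pancreatic islet genes summed to 39.4 to 78.1 CPM in wild-type, 53.3 to 69.9 at D60 and 66.3 to 93.8 at D80 in transgenic libraries. Among them Slc30a8 was at 0 in every library, and Ins1 and Ins2 reached at most 0.125 and 0.0952 CPM. Others of the list rose. Of the 6 tested, 1 was higher in transgenic pylorus at D60 and 2 at D80 (adjusted p under 0.05). Of all genes tested, 3.66% and 19.4% were. Acinar pancreas transcripts reached 4835 CPM in D80 transgenic replicate 1 against 1149 and 951 CPM in replicates 2 and 3. Duodenal enterocyte transcripts reached 11629 CPM in D80 wild-type replicate 3 against 660 and 2811 CPM in the other 2. All 3 D60 wild-type libraries and D80 transgenic replicate 1 held Y-linked transcripts and no more than 1 count of Xist, while the other 8 libraries held Xist (D80 transgenic replicate 2 also held 13 Y-linked counts).

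At D60, 15 of the 34 members had more RNA in transgenic pylorus than in wild-type at an adjusted p under 0.05 and 0 were lower, where 3.66% of all genes tested were higher and 0.241% lower. At D80, 28 members were higher and 2 lower, against 19.4% and 22.0% of all genes. The median log2 fold change of the 34 was 0.78 at D60 and 2.57 at D80, while that of all genes was -0.004 and -0.07. All 15 members that were higher at D60 were also higher at D80. Another 13 passed only at D80: Syngr3, Sv2c, Stx1a, Vamp2, Syt7, Rab3a, Rab3b, Cplx1, Cplx2, Syn2, Bsn, Napb and Amph. The 2 lower members were Sytl4 and Syngr1, and Rph3al, Ptprn2, Nsf and Dnajc5 were not called. In bulk tissue, more cells of a type and more RNA per cell cannot be told apart. Neuroendocrine markers moved with these counts, 17 of 19 being higher at D60 and 19 of 19 at D80, and their part in them was not tested.

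Genotype and sex cannot be told apart at D60, because all wild-type libraries of that age were of the Y-linked type and all transgenic ones of the Xist type. With a sex term, which rests on D80 transgenic replicate 1 alone, 1 member was higher at D60, Ptprn, at a log2 fold change of 2.54 (SE 0.34, edgeR adjusted p = 0.0081). The median of the members was then 0.27, and 85 genes in all were called. Set against the D80 wild-type libraries, which also carry Xist but are older, the D60 transgenic libraries had 12 members higher and 0 lower. The share of all genes called in that comparison is not reported here. Ptprn then stood at a log2 fold change of 2.95 (SE 0.23, edgeR adjusted p = 3.3e-05) and Syp at 1.62 (SE 0.20, edgeR adjusted p = 0.00065). Pclo, Rims2 and Sv2b were the 3 that did not pass there. With the sex term Syp stood at 1.503 (SE 0.31, edgeR adjusted p = 0.088). At D80 the number of higher members was 28 with the sex term and 28 without D80 transgenic replicate 1. It was also 28 in the fit of all 12 libraries without that term, where 19.4% of all genes were higher.

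**Figure D1:**
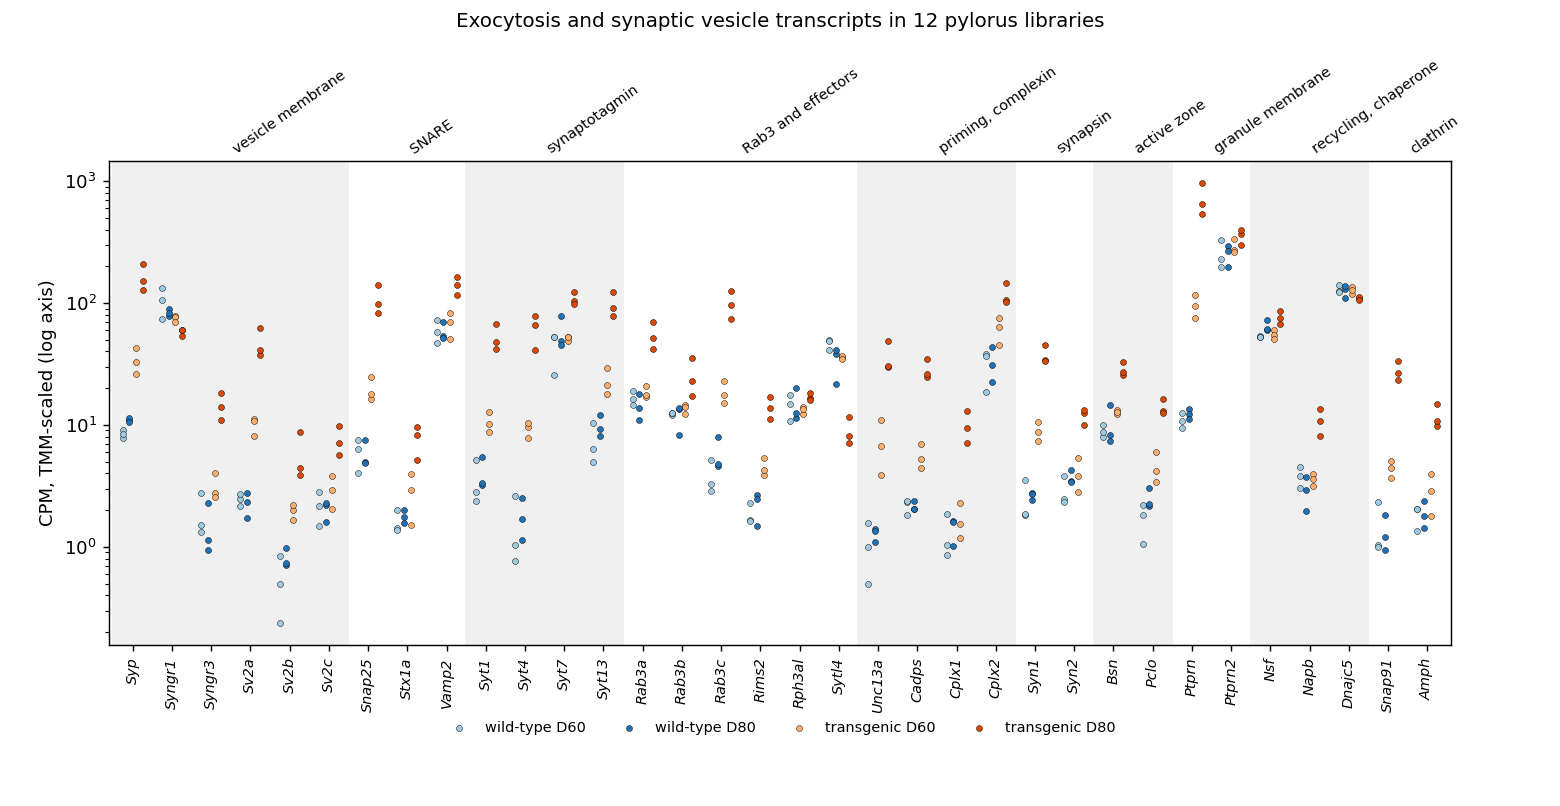
CPM of each of the 34 genes (log axis) in all 12 libraries, 1 point per library, grouped by role and coloured by group. D80 transgenic points stand above the others for most genes, while those of Sytl4 and Syngr1 lie below and those of Dnajc5 and Rph3al among or near the wild-type points.

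**Figure D2:**
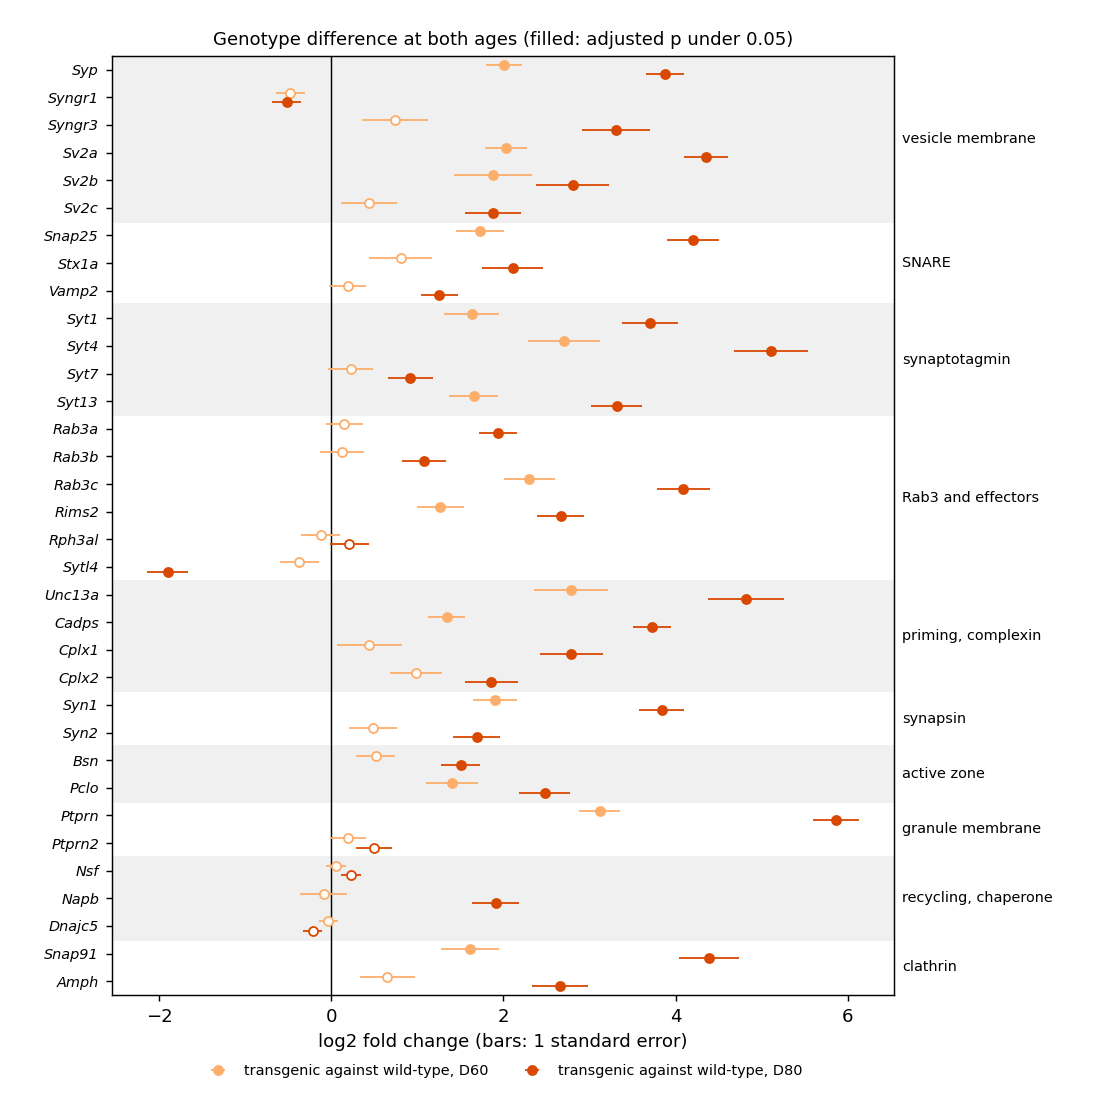
Log2 fold change of each gene between transgenic and wild-type pylorus at D60 (light) and D80 (dark), with bars of 1 standard error; filled points passed an adjusted p of 0.05. The D80 values run from -1.90 (Sytl4) to 5.86 (Ptprn).

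Promoters are shown for the member that rose most (Ptprn), the one that fell most (Sytl4), and a pair of rising members that hold letters searched for (Syn1 and Sv2a). Each run spans 250 bases before to 50 bases after a transcription start, from RefSeq on build GRCm38.p6, printed 5′ to 3′ on the gene's strand. Such windows were at hand for 26 of the 34 members, with 33 starts. The 8 without a window, which were not searched, were Syngr3, Dnajc5, Syt13, Rims2, Syt7, Snap25, Vamp2 and Syt4. Capitals in Syn1 mark, in order, an RE1-like run and TGACGTCA, the cyclic AMP response element. RE1 is the element bound by REST, a repressor of neuronal genes outside neurons, and CREB binds the other. Capitals in Sv2a mark CAGCTG, an E-box of the kind bound by neurogenic bHLH factors. The Ptprn window (1 of its 2 listed starts) and the Sytl4 window hold none of the searched letters, so they carry no capitals.
Syn1, chrX:20920869-20921168 (- strand): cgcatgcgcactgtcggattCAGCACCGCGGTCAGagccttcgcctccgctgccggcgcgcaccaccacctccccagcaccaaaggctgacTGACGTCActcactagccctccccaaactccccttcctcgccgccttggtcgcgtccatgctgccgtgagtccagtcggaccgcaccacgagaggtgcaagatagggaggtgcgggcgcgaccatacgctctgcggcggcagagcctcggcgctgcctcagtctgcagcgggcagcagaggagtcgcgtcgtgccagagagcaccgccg
Sv2a, chr3:96180977-96181276 (+ strand): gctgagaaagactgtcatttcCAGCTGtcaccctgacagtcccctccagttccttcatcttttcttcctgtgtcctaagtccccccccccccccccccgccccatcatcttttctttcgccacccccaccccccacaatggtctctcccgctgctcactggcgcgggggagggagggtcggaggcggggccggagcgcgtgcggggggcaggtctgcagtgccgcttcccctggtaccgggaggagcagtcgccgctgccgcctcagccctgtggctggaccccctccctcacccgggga
Ptprn, chr1:75264159-75264458 (- strand): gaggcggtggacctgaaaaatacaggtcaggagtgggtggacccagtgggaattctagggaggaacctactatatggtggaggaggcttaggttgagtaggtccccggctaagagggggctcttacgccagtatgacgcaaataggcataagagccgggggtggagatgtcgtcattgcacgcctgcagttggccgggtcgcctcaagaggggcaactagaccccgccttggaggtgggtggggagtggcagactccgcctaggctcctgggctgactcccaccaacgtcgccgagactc
Sytl4, chrX:133981763-133982062 (- strand): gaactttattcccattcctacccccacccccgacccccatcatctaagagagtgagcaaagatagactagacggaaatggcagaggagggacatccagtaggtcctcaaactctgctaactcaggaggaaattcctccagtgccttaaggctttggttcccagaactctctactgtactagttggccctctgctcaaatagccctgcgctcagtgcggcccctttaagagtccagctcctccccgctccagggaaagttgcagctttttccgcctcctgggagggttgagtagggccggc
The RE1-like search took CAGCACC, then 2 bases of any kind, then GGACAG, on both strands. With up to 1 mismatch it was found in the windows of 1 of 26 members (3.85%), Syn1, where it starts at -230, and in 0.211% of the 27025 genes of the table. With up to 2 mismatches it was found in the same 1 member (3.85%) and in 2.22% of genes. With no mismatch it was found in 0 members and 0.0407% of genes. TGACGTCA was likewise present in Syn1 alone (3.85%, at -159) and in 2.03% of genes. CAGCTG was present for 10 of 26 members (38.5%) against 18.3% of genes: Amph, Bsn, Cplx1, Cplx2, Rab3a, Rab3c, Rph3al, Stx1a, Sv2a and Syt1. CAGATG, searched on both strands, was present for 4 members (15.4%) against 19.2% of genes. The median GC content of the windows was 61.3% for members and 52.8% for all genes. Matches are letters in a window and were not tied to binding.

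Of the 6 vesicle membrane proteins, 3 were higher at D60 and 5 at D80, with Syngr1 lower. The shares of all genes to set beside this and each role below were 3.66% higher at D60, and 19.4% higher and 22.0% lower at D80. Syp encodes synaptophysin, the abundant vesicle protein used as a stain for neuroendocrine tumours, from chrX:7638471-7653256, + strand in the GENCODE M21 annotation of GRCm38, the source of all gene positions here. It measured 9.14, 7.87 and 8.42 CPM in the D60 wild-type libraries and 11, 11.5 and 10.6 CPM in the D80 ones. Transgenic libraries gave 26.3, 43.0 and 32.8 CPM at D60 and 127, 209 and 151 CPM at D80, so the genotypes were apart at both ages. Its log2 fold change was 2.0 (SE 0.21, edgeR adjusted p = 0.00014) at D60 and 3.88 (SE 0.22, edgeR adjusted p = 3.8e-07) at D80. An antisense gene, Gm14703, covers 16.8% of the exon bases of Syp, and whether reads were counted by strand is not stated in the notes at hand.

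The SV2 glycoproteins are carried by synaptic vesicles and endocrine granules, where SV2A is the binding site of the drug levetiracetam. Sv2a (chr3:96181151-96195521, + strand) stood at 2.47, 2.73 and 2.14 CPM in D60 wild-type and 2.76, 2.34 and 1.73 CPM in D80 wild-type libraries. It reached 8.05, 11.3 and 10.8 CPM in D60 and 37.1, 61.9 and 41.3 CPM in D80 transgenic libraries, with no overlap at either age. The differences were 2.03 (SE 0.24, edgeR adjusted p = 0.00042) and 4.35 (SE 0.26, edgeR adjusted p = 5.5e-07) on the log2 scale, the latter 20.5-fold. Both other isoforms had smaller D80 values. Sv2b, at 0.238 to 0.975 CPM in wild-type libraries, had a log2 fold change of 2.81 at D80, and Sv2c one of 1.88. The D60 call of Sv2b was lost when any 1 of 7 libraries was left out: D60 wild-type replicate 1 or 3, D80 wild-type replicate 2, any D60 transgenic library or D80 transgenic replicate 3. Per kb, the ratio of Sv2a to Sv2c was 2.43 ± 0.771 in D80 wild-type and 13.1 ± 0.736 in D80 transgenic libraries (mean ± SD, n = 3 in each, as for all values per kb below).

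The synaptogyrins, relatives of synaptophysin, split. Syngr3, a form known from neurons, went from 0.935, 2.29 and 1.13 CPM in D80 wild-type to 10.9, 18.3 and 13.9 CPM in D80 transgenic libraries, a log2 fold change of 3.31 (SE 0.40, edgeR adjusted p = 7.9e-05). Syngr1 was the higher of the pair per kb in wild-type pylorus, with 131, 74.0 and 106 CPM at D60 and 89.2, 77.4 and 82.2 CPM at D80. In transgenic libraries it measured 77.7, 76.6 and 69.9 CPM at D60 and 60.2, 60.5 and 53.3 CPM at D80, below every wild-type library of that age only at D80. Its D80 log2 fold change was -0.52 (SE 0.17, edgeR adjusted p = 0.03). The call was lost when any 1 of 6 libraries was left out (D80 wild-type replicates 1 and 3, D60 transgenic replicate 2, or any D80 transgenic library), and under upper-quartile factors, without composition factors, with the sex term or with a minimum fold of 1.5.

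All 3 SNARE proteins were higher at D80, and Snap25 also at D60. Snap25 (chr2:136713453-136782428, + strand), the membrane SNARE that botulinum toxin A cuts, was at 7.47, 4.0 and 6.38 CPM and 5.0, 7.50 and 4.90 CPM in D60 and D80 wild-type libraries. Transgenic libraries measured 16.4, 24.8 and 17.9 CPM at D60 and 82.3, 140.0 and 98.7 CPM at D80. No library of one genotype reached the range of the other at the same age. The log2 fold changes were 1.73 (SE 0.28, edgeR adjusted p = 0.0034) at D60 and 4.21 (SE 0.30, edgeR adjusted p = 1.9e-06) at D80. Stx1a, syntaxin-1A, its partner in the plasma membrane, did not pass at D60 (1.5, 3.96 and 2.94 CPM in transgenic, 1.37 to 2.0 in wild-type libraries, overlapping). By D80 it was at 5.17, 9.62 and 8.24 CPM against 1.99, 1.76 and 1.56 CPM, a difference of 2.11 (SE 0.35, edgeR adjusted p = 0.00085). Vamp2, the vesicle SNARE synaptobrevin-2, was already at 47.2 to 72.2 CPM in wild-type pylorus and had the smallest change of the 3, 1.25 (SE 0.22, edgeR adjusted p = 0.00095) at D80.

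Among synaptotagmins, 3 of 4 were higher at D60 and 4 of 4 at D80. Syt4, a form found on dense-core vesicles, measured 2.59, 1.04 and 0.762 CPM in D60 and 1.14, 2.51 and 1.69 CPM in D80 wild-type libraries. It rose to 9.68, 10.3 and 7.83 CPM in D60 and 41.0, 78.3 and 65.4 CPM in D80 transgenic libraries. All transgenic values lay above all wild-type values. The log2 fold changes were 2.70 (SE 0.42, edgeR adjusted p = 0.0024) and 5.11 (SE 0.43, edgeR adjusted p = 5.9e-06). Without D60 wild-type replicate 1 the D60 value was 3.35. Gm26658 lies antisense over 14.5% of its exon bases.

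Syt1, the fast calcium sensor of synaptic vesicles, was at 5.19, 2.36 and 2.81 CPM and 3.21, 5.47 and 3.34 CPM in the wild-type libraries of D60 and D80. Transgenic libraries had 10.2, 12.8 and 8.77 CPM and 41.7, 67.1 and 47.8 CPM at those ages, again apart. The differences were 1.63 (SE 0.32, edgeR adjusted p = 0.012) and 3.70 (SE 0.33, edgeR adjusted p = 8.3e-06). At D60 the call was lost without D60 wild-type replicate 2 or 3 or D60 transgenic replicate 2. Syt13, a form that lacks calcium-binding residues, reached 78.6 to 124 CPM in D80 transgenic against 8.17 to 12.1 CPM in wild-type libraries, a log2 fold change of 3.32. Syt7, the slow high-affinity sensor, was the highest of the 4 per kb in wild-type pylorus and measured 25.6 to 77.7 CPM. It changed least, 0.92 (SE 0.26, edgeR adjusted p = 0.016) at D80, a call that ended when replicate 2 of either D80 group, or replicate 3 of D80 wild-type, was left out.

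The Rab3 GTPases and their effectors were divided: 2 of 6 were higher at D60, and at D80 4 were higher, 1 lower and 1 not called. Rab3c was at 5.19, 3.30 and 2.86 CPM in D60 wild-type and 4.63, 7.90 and 4.81 CPM in D80 wild-type libraries. It measured 17.7, 22.9 and 15.0 CPM and 73.8, 125 and 95.7 CPM in the transgenic libraries of those ages. The ranges were apart, at log2 fold changes of 2.30 (SE 0.30, edgeR adjusted p = 0.00072) and 4.09 (SE 0.31, edgeR adjusted p = 2.6e-06). Rab3a, the main Rab3 of brain synapses, and Rab3b were higher per kb in wild-type libraries, where they measured 10.9 to 18.9 and 8.25 to 13.8 CPM, and changed less, 1.94 and 1.08 at D80. Per kb, the ratio of Rab3c to Rab3a was 0.0429 ± 0.0156, 0.0783 ± 0.0292, 0.185 ± 0.0232 and 0.333 ± 0.00758 in D60 wild-type, D80 wild-type, D60 transgenic and D80 transgenic libraries. All transgenic libraries lay above all wild-type ones in that ratio.

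Rims2, a scaffold that ties Rab3 to the release site, measured 1.67, 2.31 and 1.62 CPM and 2.64, 2.47 and 1.47 CPM in D60 and D80 wild-type libraries. Its transgenic values were 3.86, 5.38 and 4.30 CPM and 11.2, 17.1 and 13.7 CPM. The log2 fold changes, 1.27 (SE 0.27, edgeR adjusted p = 0.022) and 2.67 (SE 0.27, edgeR adjusted p = 2.3e-05), came from ranges that did not touch. At D60 its call was lost without D60 wild-type replicate 1 or 3 or D60 transgenic replicate 2 or 3. Rph3al (Noc2), a Rab3 and Rab27 effector of endocrine cells, was at 10.7 to 20.1 CPM in wild-type and 12.2 to 18.3 CPM in transgenic libraries and did not pass at either age.

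Sytl4 (chrX:133936385-133981812, - strand) encodes granuphilin, an effector of Rab27 that docks insulin granules, and went against its role group. Wild-type libraries held 49.6, 40.7 and 48.8 CPM at D60 and 21.5, 37.9 and 40.7 CPM at D80. Transgenic libraries held 36.4, 36.7 and 34.6 CPM at D60, a log2 difference of -0.37 (SE 0.23, edgeR adjusted p = 0.52) that was not called although the ranges were apart. At D80 they held 11.6, 7.15 and 8.09 CPM, all below the lowest wild-type library, at -1.90 (SE 0.24, edgeR adjusted p = 0.00011), or 3.72-fold lower. Sytl4, Syp and Syn1 lie on the X chromosome. Without D80 transgenic replicate 1, which left Xist-type libraries in both D80 groups, the Sytl4 call remained.

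All 4 priming factors and complexins were higher at D80 and 2 at D60. Cadps (CAPS-1) primes dense-core vesicles. Its levels were 2.35, 1.84 and 2.38 CPM in D60 and 2.03, 2.38 and 2.04 CPM in D80 wild-type libraries. Transgenic libraries gave 5.29, 6.92 and 4.43 CPM at D60 and 24.8, 34.6 and 26.2 CPM at D80, apart from wild-type at both ages. Log2 fold changes were 1.34 (SE 0.22, edgeR adjusted p = 0.0033) and 3.73 (SE 0.22, edgeR adjusted p = 5.9e-07). Unc13a (Munc13-1, chr8:71624417-71671757, - strand) opens syntaxin for SNARE assembly and was among the 3 lowest members per kb in wild-type libraries, with 0.494, 1.55 and 1.0 CPM and 1.10, 1.41 and 1.34 CPM. It reached 3.86, 11 and 6.77 CPM and 30.1, 48.9 and 30.3 CPM in D60 and D80 transgenic libraries. The differences were 2.79 (SE 0.43, edgeR adjusted p = 0.0025) and 4.82 (SE 0.44, edgeR adjusted p = 1.0e-05), the latter 28.3-fold and the third largest of the 34.

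Complexins 1 and 2 bind the assembled SNARE complex. Cplx2 was the higher form per kb in wild-type pylorus, at 18.6 to 43.6 CPM, and reached 105, 146 and 102 CPM in D80 transgenic libraries (log2 difference 1.86, SE 0.31, edgeR adjusted p = 0.00081). Cplx1 rose from 1.02 to 1.63 CPM in D80 wild-type to 7.06, 13.1 and 9.39 CPM in D80 transgenic libraries (log2 difference 2.79, SE 0.37, edgeR adjusted p = 0.00016). Neither passed at D60, with log2 fold changes of 0.98 for Cplx2 and 0.44 for Cplx1. The ratio of Cplx2 to Cplx1 per kb was 13.3 ± 7.75 in D60 wild-type, 10.6 ± 3.96 in D80 wild-type, 17.1 ± 5.75 in D60 transgenic and 5.49 ± 0.999 in D80 transgenic libraries. The transgenic groups did not overlap in it, while at each age the genotypes did.

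Synapsins coat vesicles and tether them in reserve pools. Syn1 (chrX:20860511-20921004, - strand), whose promoter with the RE1-like run is printed above, was at 3.52, 1.84 and 1.86 CPM and 2.40, 2.78 and 2.69 CPM in D60 and D80 wild-type libraries. It was at 7.40, 10.46 and 8.77 CPM and 34.2, 45.3 and 33.2 CPM in the transgenic ones, above all wild-type values. Its log2 fold changes were 1.90 (SE 0.26, edgeR adjusted p = 0.00095) and 3.84 (SE 0.26, edgeR adjusted p = 1.3e-06). Syn2 overlapped between genotypes at D60, with 2.81, 5.38 and 3.83 CPM in transgenic and 3.83, 2.45 and 2.33 CPM in wild-type libraries. At D80 its 10.003, 12.5 and 13.4 CPM stood above 3.49, 4.24 and 3.38 CPM (log2 difference 1.69, SE 0.27, edgeR adjusted p = 0.00062).

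The giant active zone scaffolds piccolo and bassoon mark the sites where synaptic vesicles fuse. Pclo measured 1.05, 1.84 and 2.19 CPM in D60 and 3.05, 2.16 and 2.25 CPM in D80 wild-type libraries. Transgenic values were 4.15, 6.04 and 3.41 CPM and 12.9, 16.3 and 12.5 CPM, with log2 fold changes of 1.41 (SE 0.30, edgeR adjusted p = 0.02) and 2.48 (SE 0.29, edgeR adjusted p = 7.3e-05). The D60 call of Pclo was lost without D60 wild-type replicate 1 or 2 or D60 transgenic replicate 2. Bsn, with 8.03 to 9.90 CPM in D60 wild-type and 12.4 to 13.2 CPM in D60 transgenic libraries, was apart but not called there (log2 difference 0.52, SE 0.23, edgeR adjusted p = 0.32). By D80 it measured 25.4, 32.9 and 27.4 CPM against 14.6, 8.21 and 7.41 CPM (log2 difference 1.5, SE 0.23, edgeR adjusted p = 0.00044). Both scaffolds have long messages, and Pclo was low per kb, being the 34th of 34 in both transgenic groups.

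Ptprn and Ptprn2 encode IA-2 and phogrin, receptor-type phosphatase relatives of the secretory granule membrane and autoantigens of type 1 diabetes. Ptprn (chr1:75247027-75264502, - strand) held the largest D80 change of the set. It was at 10.8, 9.52 and 12.6 CPM in D60 and 13.4, 12.2 and 11.3 CPM in D80 wild-type libraries. In transgenic libraries it was at 75.5, 116 and 94.2 CPM at D60 and 539, 959.9 and 648 CPM at D80. The lowest transgenic library was far above the highest wild-type one at both ages. Its log2 fold change was 3.12 (SE 0.24, edgeR adjusted p = 1.8e-05) at D60 and 5.86 (SE 0.27, edgeR adjusted p = 1.5e-07) at D80, which is 8.69-fold and 58.2-fold. For scale, Chga and Chgb, the granule core proteins, differed by 5.13 and 6.07 on the log2 scale at D80.

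Ptprn2 was the highest member per kb in wild-type pylorus and was not called at either age. Its libraries held 330.3, 198 and 228 CPM (D60 wild-type), 195, 292 and 266 CPM (D80 wild-type), 332, 273 and 262 CPM (D60 transgenic) and 366, 399 and 300.1 CPM (D80 transgenic). The D80 ranges were apart, yet the difference of 0.50 (SE 0.21, edgeR adjusted p = 0.077) was not called. It passed without D60 wild-type replicate 1 (edgeR adjusted p = 0.039), in DESeq2 (0.044), under upper-quartile scaling (0.018) and when composition factors were dropped (0.001). The ratio of Ptprn to Ptprn2 per kb was 0.0916 ± 0.0232 in D60 wild-type, 0.103 ± 0.0307 in D80 wild-type, 0.683 ± 0.205 in D60 transgenic and 4.07 ± 0.982 in D80 transgenic libraries. The pair therefore changed order, with Ptprn above Ptprn2 in all 3 D80 transgenic libraries and below it in the other 9. Such ratios within a library do not depend on the scaling between libraries.

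The recycling and chaperone members changed least as a group, with a median log2 fold change of 0.23 at D80. Napb (beta-SNAP), the neuronal adaptor that loads NSF onto spent SNAREs, was at 1.95, 3.71 and 2.90 CPM in D80 wild-type and 8.17, 13.4 and 10.7 CPM in D80 transgenic libraries (log2 difference 1.91, SE 0.27, edgeR adjusted p = 0.00029). At D60 its genotypes overlapped, 3.13, 3.96 and 3.58 CPM in transgenic and 4.51, 3.82 and 3.05 CPM in wild-type libraries. Nsf, the ATPase itself, serves fusion steps in all cells. It held 60.4, 61.4 and 72.2 CPM in D80 wild-type and 74.9, 85.4 and 67.0 CPM in D80 transgenic libraries, overlapping and not called (log2 difference 0.23, SE 0.12, edgeR adjusted p = 0.13). Dnajc5, the vesicle chaperone CSP-alpha, ran from 109.8 to 141 CPM in wild-type and 106 to 134 CPM in transgenic libraries and was not called at either age.

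Of the clathrin adaptors that retrieve vesicle membrane after fusion, Snap91 (AP180) rose at both ages and Amph (amphiphysin) at D80. Snap91 measured 2.35, 1.04 and 1.0 CPM and 0.935, 1.81 and 1.21 CPM in D60 and D80 wild-type libraries, and 3.66, 5.08 and 4.47 CPM and 23.2, 33.1 and 26.7 CPM in transgenic ones. Its log2 fold changes were 1.62 (SE 0.34, edgeR adjusted p = 0.018) and 4.39 (SE 0.35, edgeR adjusted p = 4.0e-06). The D60 call was lost without D60 wild-type replicate 2 or 3 or D60 transgenic replicate 2 or 3. Amph overlapped at D60 (1.79, 3.96 and 2.85 CPM against 1.36, 2.03 and 2.05 CPM). At D80 it stood at 9.85, 14.8 and 10.8 CPM against 1.79, 2.38 and 1.43 CPM, a difference of 2.66 (SE 0.32, edgeR adjusted p = 9.0e-05).

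The order of levels per kb shifted between groups. In wild-type libraries Ptprn2 led, at 29.3 ± 8.04 CPM per kb at D60 and 29.2 ± 5.79 at D80, followed by Syngr1, Dnajc5 and Vamp2 in an order that differed between the ages. Syngr1 and Dnajc5 did not differ beyond their spread, with 21.6 ± 5.99 and 18.7 ± 1.40 CPM per kb at D60. In D80 transgenic libraries Ptprn led at 168 ± 51.4 CPM per kb. Behind it came Ptprn2 (41.3 ± 5.85), Vamp2 (36.7 ± 6.03), Syp (31.2 ± 8.09) and Syt13 (26.0 ± 6.25). Each neighbouring pair from Ptprn2 to Syt13 overlapped within 1 SD, while Ptprn stood apart. Sytl4 went from the 5th place in D60 wild-type to the 28th in D80 transgenic libraries, and Ptprn from the 12th to the 1st. Members made up 0.0735 to 0.0812% of all counts in wild-type, 0.0990 to 0.121% in D60 transgenic and 0.273 to 0.408% in D80 transgenic libraries. Ptprn alone gave 1.17 to 1.68% of the members' counts in wild-type, 7.06 to 9.90% in D60 transgenic and 23.8 to 29.0% in D80 transgenic libraries.

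Between D60 and D80, 29 of the 34 members rose in transgenic pylorus and 1 fell, Sytl4, against 17.7% and 18.0% of all genes, at a median log2 fold change of 1.60. The 28 members higher than wild-type at D80 were all among the 29. The remaining one was Nsf, with 59.5, 54.1 and 50.6 CPM at D60 and 74.9, 85.4 and 67.0 CPM at D80 (log2 difference 0.47, SE 0.12, edgeR adjusted p = 0.0093). Ptprn changed most with age, 2.91 (SE 0.23, edgeR adjusted p = 6.6e-05), followed by Syt4 (2.73), Snap91 (2.65) and Cplx1 (2.55). The age calls of Rab3b and Cplx2 were lost without D60 transgenic replicate 1 or 3 or D80 transgenic replicate 2, and that of Sv2b without the last of these. Sytl4 had a log2 change of -2.0 (SE 0.24, edgeR adjusted p = 0.00024). In wild-type pylorus 0.00% of genes and 0 of 34 members passed between the ages in edgeR, and 1 member, Nsf, had an unadjusted p under 0.05. DESeq2 called 254 genes there, and 0 members. That comparison also runs from Y-linked to Xist-type libraries. The comparisons with D80 transgenic libraries share those 3 libraries.

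The genotype difference itself changed with age for 17 members: 16 were higher and 1 lower in the interaction of genotype and age, against 2.77% and 2.23% of all genes. Snap91 (log2 difference 2.77, SE 0.47, edgeR adjusted p = 0.012) and Ptprn (log2 difference 2.74, SE 0.31, edgeR adjusted p = 0.0046) had the largest values, and Sytl4 (log2 difference -1.53, SE 0.33, edgeR adjusted p = 0.024) was the lower one. Of the 15 members already higher at D60, 11 were among the 16, the exceptions being Sv2b, Rims2, Unc13a and Pclo. This count depended on single libraries and on the fit. It was 8 without D60 transgenic replicate 3 or D80 transgenic replicate 2, 10 without D80 wild-type replicate 3, 4 with the sex term and 22 in DESeq2. The 8 that passed in all 12 leave-one-out fits were Syp, Sv2a, Snap25, Rab3a, Cadps, Syn1, Ptprn and Snap91.

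Transgenic libraries of 1 group differed from each other in a shared way. D60 transgenic replicate 2 was the highest of its group for 28 of the 34 members, and D80 transgenic replicate 2 for 32. D80 transgenic replicate 1, the one of the Y-linked type and with the highest acinar sum, was the lowest for 24. Summed neuroendocrine markers were 5283, 7246 and 5761 CPM in D60 transgenic replicates 1 to 3 and 30821, 44678 and 30256 CPM at D80, so replicate 2 was the highest there too. Summed enteric neuron markers were 116, 198 and 139 CPM at D60 and 203, 298 and 258 CPM at D80, also highest in replicate 2. None of the other marker sums was highest in replicate 2 at both ages. The part of either cell type in the order of the libraries was not tested. Without D60 transgenic replicate 2 the number of members higher at D60 went from 15 to 10, with a median of 0.50. The share of all genes higher was 3.66% with all 12 libraries and is not reported here for the fit without that replicate, so the fall was not set against that of all genes. In wild-type groups no library was highest for more than 16 members.

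Neuronal members were set beside relatives that serve secretion in other cells, as ratios per kb in each library. Snap25 to Snap23, the widely expressed form, was 0.0665 ± 0.0179 in D60 wild-type, 0.0698 ± 0.0157 in D80 wild-type, 0.248 ± 0.0670 in D60 transgenic and 1.80 ± 0.660 in D80 transgenic libraries. Syp to Sypl, its ubiquitous relative, went from 0.0969 ± 0.0140 in D80 wild-type to 2.82 ± 1.08 in D80 transgenic libraries. Both ratios were under 1 in all wild-type and D60 transgenic libraries and above 1 in all 3 D80 transgenic ones. Vamp2 to Vamp8, the SNARE of zymogen granules and mucin secretion, was 0.194 ± 0.0712 and 0.825 ± 0.132 in the D80 groups, below 1 throughout. Rab3a to Rab3d, a Rab of exocrine granules, was 0.0587 ± 0.00824 and 0.454 ± 0.176. Unc13a to Unc13d, which acts in blood cell granules and epithelia, was 0.0165 ± 0.00285 and 0.985 ± 0.362. The 3 libraries of each group at D80 did not overlap in any of these 5 ratios. Vamp8, Rab3d and Unc13d were themselves lower in D80 transgenic libraries, so those ratios rose by more than the member did. The mean ratios of Snap25 to Snap23 and of Syp to Sypl likewise rose by more than Snap25 (18.5-fold) and Syp (14.7-fold) did at D80. Sytl4 to Sytl2 overlapped, at 0.381 ± 0.165 in D80 wild-type and 0.331 ± 0.0525 in D80 transgenic libraries.

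**Figure D3:**
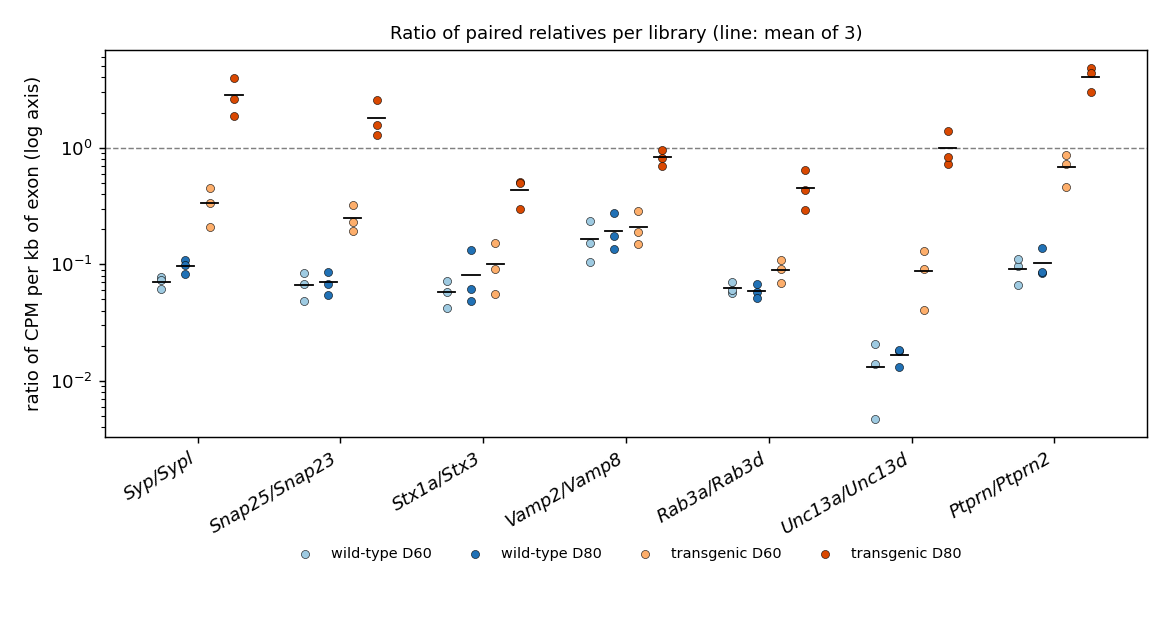
Ratio of CPM per kb of exon (log axis) between a member and a relative, 1 point per library, coloured by group, with a line at the mean of 3. The dashed line marks equal levels; D80 transgenic libraries lie above it for Syp to Sypl, Snap25 to Snap23 and Ptprn to Ptprn2.

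Other genes of the same families and steps numbered 92 in the table, of which 85 were tested. At D60, 9 of the 85 were higher and 0 lower, where 3.66% and 0.241% of all genes were. At D80, 23 of the 85 were higher and 24 lower, where 19.4% and 22.0% of all genes were, and the median log2 fold change was 0.001. Without composition factors the D80 split was 38 higher and 12 lower, and that scaling moved the median of all genes from -0.07 to 0.34. Among all genes called at D80 the share that was higher was 46.8% as reported, 63.0% with upper-quartile factors and 83.6% without composition factors. The members' median under no composition factor was 2.97, and 30 of them were higher, where 5104 of the 15369 genes tested were.

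The highest-ranked other genes were Synpr (synaptoporin), Stxbp5l (tomosyn-2), Dnajc6 (auxilin, which uncoats clathrin vesicles) and Rimbp2, an active zone binding protein. Synpr had 0, 4 and 1 counts in D60 and 2, 2 and 2 counts in D80 wild-type libraries, and 88, 91 and 90 counts in D60 and 530, 675 and 616 counts in D80 transgenic libraries. Stxbp5l measured 1.14, 1.54 and 1.26 CPM in D80 wild-type and 22.1, 27.8 and 20.4 CPM in D80 transgenic libraries (log2 difference 4.16, SE 0.26, edgeR adjusted p = 7.1e-07). Dnajc6 had a D80 log2 fold change of 4.12 (SE 0.26, edgeR adjusted p = 8.1e-07), and Rimbp2 one of 3.86 (SE 0.25, edgeR adjusted p = 8.4e-07). The D60 values led with the same kind of gene: Synpr (5.38), Stxbp5l (2.51) and Rimbp2 (2.5).

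Lower at D80 were Sytl1, Stxbp6, Stx19 and Rab27b. Sytl1 is a synaptotagmin-like effector and Rab27b a Rab of secretory granules. Sytl1 measured 91.1, 118 and 175 CPM in D80 wild-type and 30.01, 23.3 and 22.1 CPM in D80 transgenic libraries (log2 difference -2.35, SE 0.23, edgeR adjusted p = 1.6e-05). Rab27b went from 243, 395 and 319 to 120.0, 78.6 and 89.3 CPM (log2 difference -1.73, SE 0.24, edgeR adjusted p = 0.00021). Stxbp6 (amisyn) differed by -1.37 (SE 0.17, edgeR adjusted p = 8.9e-05) and Stx19, an epithelial syntaxin, by -1.76 (SE 0.23, edgeR adjusted p = 0.00015). Other lower genes, named after their values were seen, were Rab27a (-1.09), Sytl2 (-1.93), Rab3d (-0.95), Vamp8 (-0.90) and Unc13d (-1.08). None of these was called at D60.

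**Figure D4:**
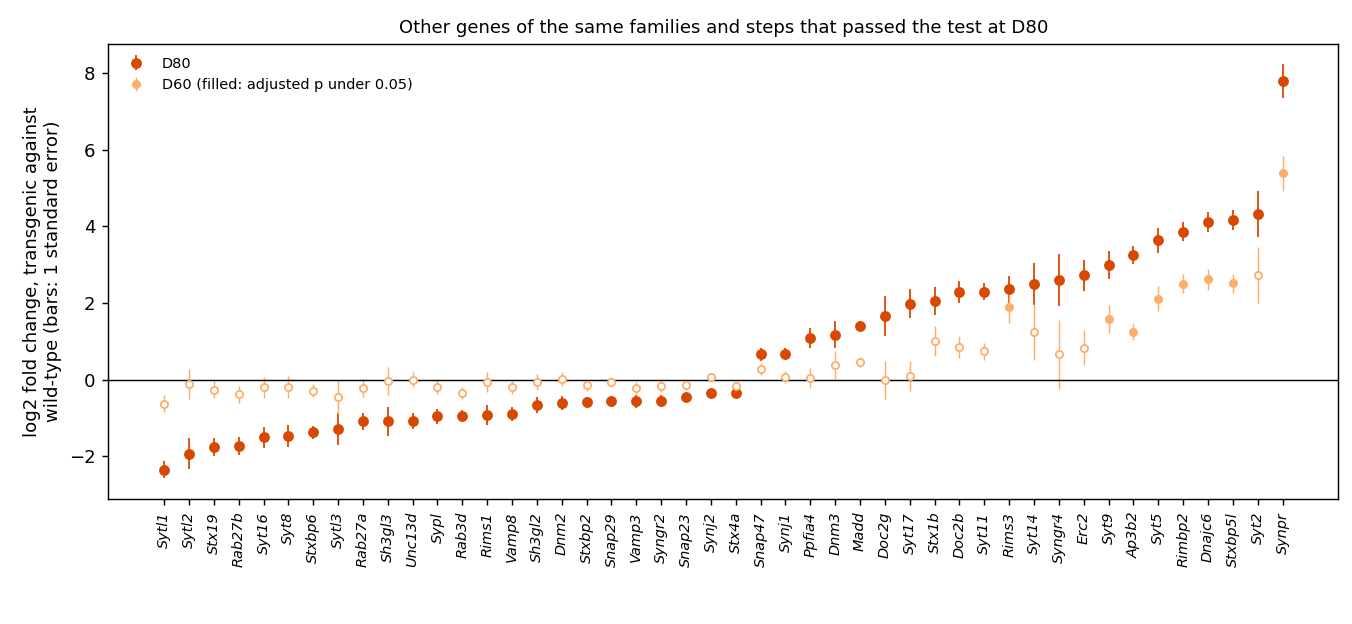
Log2 fold change between transgenic and wild-type pylorus for 46 of the 47 other family genes called at D80 (dark, ordered by value), with their D60 values (light; filled where called) and bars of 1 standard error. The D80 values run from -2.35 (Sytl1) to 7.79 (Synpr), and the 8 drawn genes called at D60 are all on the higher side.

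Markers of enteric neurons, which also use this machinery, did not move as 1 group. Of 18 tested, 3 were higher at D60, and at D80 9 were higher and 6 lower, from Nos1 (-2.26) to Elavl3 (4.85). Of all genes tested, 3.66% were higher at D60, and 19.4% were higher and 22.0% lower at D80. Neuroendocrine markers ran from Rfx6 (1.59) to Hdc (7.16) on the log2 scale at D80. Of 10 enteric glia markers, 2 were lower and 0 higher at D80, which is near the share of all genes for lower. Their median log2 fold change was -0.88, and 0 of the 10 had a value above 0. Of 10 smooth muscle markers, 10 were lower, and their summed level averaged 14719.8 CPM in D80 wild-type and 2771 CPM in D80 transgenic libraries. At D80, 2 of 6 islet markers and 4 of 11 acinar pancreas markers were higher, and 0 of 10 duodenal enterocyte markers passed. The 6 islet markers ran from Mafa (-0.85) to Nkx6-1 (5.81) on the log2 scale. The part of these cell types in the members' values was not tested.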

How the data were processed

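Polyadenylated RNA of whole pylorus was sequenced with a stranded kit, per the labels' protocols. The values are the authors' deposited raw counts per gene. The submitters' processing notes list build mm10 and the tools HTSeq 0.9.1, STAR 2.5.3a and edgeR 3.16.5, without their roles; the strand setting of the counting is not given in the sources used here. Totals ran from 20121600 to 27633715 counts per library, and replicates of a group differed by more than sampling noise.

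Genes were kept with filterByExpr of edgeR (15369 of 23420, holding 99.975% of counts) and scaled by TMM factors of 0.805 to 1.30. The quasi-likelihood test of edgeR 4.0.16 (R 4.3.3) was fitted over the 4 groups with 8 residual degrees of freedom, and Benjamini-Hochberg adjustment covered every gene kept; calls need an adjusted p under 0.05. Standard errors are the log2 fold change over the square root of F. The interaction is the genotype difference at D80 minus that at D60. The scripts were tested on simulated data. Exon lengths came from GENCODE M21 and promoters from RefSeq.

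The members and gene lists were chosen with earlier results of these data known. Values in full are given, within each role, for the 2 members with the smallest D80 p and any member called against most of its role; of other family genes, the 4 smallest p in each direction at D80 and the 3 smallest at D60 are named. Alternatives were other scaling factors and filters, DESeq2 1.42.0, voom of limma 3.58.1, a minimum fold of 1.5, robust dispersion, only the 2 groups compared, a replicate block, a sex term and each library left out. The comparison of D60 transgenic with D80 wild-type libraries was added after seeing the data. Some genes of the lists are counted but not reported here by name.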

Additional observations from a re-analysis of the deposited data

Results flagged for a closer look

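The genotype difference at D80 departed from that at D60 for 17 of the 34 members, by a test of the difference itself (the interaction term of edgeR). The values below are the log2 fold change at D80 minus that at D60, with the edgeR adjusted p in parentheses. Among vesicle membrane, SNARE and synaptotagmin genes they were Syp 1.88 (0.0082), Syngr3 2.56 (0.024), Sv2a 2.32 (0.0075), Snap25 2.48 (0.0092), Syt1 2.07 (0.024), Syt4 2.41 (0.037) and Syt13 1.66 (0.037). Among Rab3 GTPases, priming factors, complexins and synapsins they were Rab3a 1.78 (0.012), Rab3c 1.78 (0.03), Cadps 2.39 (0.0046), Cplx1 2.35 (0.028) and Syn1 1.94 (0.014). Among granule, recycling and clathrin genes they were Ptprn 2.74 (0.0046), Napb 2.0 (0.016), Snap91 2.77 (0.012) and Amph 2.0 (0.03). The value of Syt4 was 1.81 without D60 wild-type replicate 1, and its call was lost in 8 of the 12 leave-one-out fits. Syt13, Cplx1 and Sytl4 each lost theirs in 7 of these fits, and Rab3c and Amph in 6. For Syngr3 and Syt1 it was lost in 3, and for Napb in 2. Sytl4 was the 1 member in the other direction, at -1.53 (0.024). The D60 difference runs from Y-linked to Xist-type libraries. At D80 all wild-type libraries and transgenic replicates 2 and 3 are of the Xist type, and transgenic replicate 1 is of the Y-linked type.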

How the results depend on the processing

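No member changed direction in a called comparison under any alternative. Stx4a and Synj2, other family genes, reversed with no composition factor, to log2 fold changes of 0.069 and 0.065 at D80, and Stx4a to 0.0033 between ages in transgenic libraries. That setting, upper-quartile factors, a minimum fold of 1.5, the sex term, and leaving out both D80 transgenic replicate 1 and D80 wild-type replicate 3 each left 1 member lower at D80; using only the 2 groups gave 2 lower with age in transgenic libraries. With the sex term, members higher at D60 went to 1. In the interaction, members higher were 22 with DESeq2, 10 with voom, 8 with the minimum fold and 4 with the sex term, and members lower were 0 with the last 2.

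Over all genes, 599 were called at D60 (992 with DESeq2, 365 with the minimum fold, 85 with the sex term), 6354 at D80 (2604 with the minimum fold), 5490 between ages in transgenic libraries (1940 with the minimum fold), 0 in wild-type (254 with DESeq2, 5 with only the 2 groups, 1 with the sex term, 7 without both libraries) and 768 in the interaction (1745 with DESeq2, 423 with voom, 187 with the minimum fold, 99 with the sex term).

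Leaving out each library gave 10 to 15 members higher at D60, 27 to 29 at D80, 26 to 29 with age in transgenic, 0 to 0 in wild-type libraries and 8 to 19 in the interaction. Members lower were 0 to 1, 1 to 2, 1 to 2, 0 to 0 and 0 to 1. All genes called were 378 to 736, 4416 to 7079, 3507 to 6594, 0 to 396 and 193 to 2419.

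Replicate numbers did not pair the samples: deviations of the 18 same-numbered pairs correlated at -0.344 to 0.393, with 6 over 0.1. With the replicate block, members higher were 15 at D60, 28 at D80, 29 and 0 with age in transgenic and wild-type libraries, and 17 in the interaction. The shares of all genes called with that block are not reported here. Counts limit the scarcest members, 5 of which had fewer than 20 counts in a library.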
